A study of Mus musculus with 8 samples.

Results

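The 10 genes described here encode semaphorin ligands (*Sema4d*, *Sema5a*, *Sema6a* and *Sema6d*), plexin receptors (*Plxnb3* and *Plxna4*), neuropilin co-receptors (*Nrp1* and *Nrp2*) and members of the Nogo system (*Rtn4* and *Lingo1*). They were chosen by symbol, and each matched 1 of the 23427 genes measured in mouse OPCs, the precursors of oligodendrocytes (OLs), during differentiation in culture. The cells came from WT C57BL/6J pups at postnatal day 7 and had been captured from the cortex with an antibody against PDGFRα, so the starting population was enriched for OPCs and not drawn from a clone or a transgenic line. On Day 0 the cells were still precursors. Day 1, Day 2 and Day 3 count from the change to a medium without growth factors and with the thyroid hormone T3, and none of the libraries is from a culture held without that change for as long. Each day had 2 libraries of poly(A) RNA, and the study describes them as independent experiments. The p-values rest on the spread between libraries of the same day, pooled over the 4 days and drawn toward that of genes of similar level. Where a replicate block is named, the difference common to same-numbered replicates is taken out first.

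Semaphorins are secreted or membrane-bound proteins that steer growing axons and migrating cells. They act through plexins, whose intracellular part switches off small GTPases and reshapes the actin cytoskeleton, and the secreted class also needs neuropilins to bind its plexin. Nogo, the product of *Rtn4*, is a membrane protein of myelin that stops axon growth through a receptor complex on neurons, and LINGO1 is part of that complex and is also known as a brake on OL differentiation when OPCs themselves make it.

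Levels are given as FPKM, the number of fragments per kilobase of transcript and scaled to the mapped fragments of the library, so levels of different genes can be set side by side. The libraries held between 960000 and 1530000 fragments, as judged from the steps in the lowest FPKM values, and the shallowest was on Day 3. The 5 OPC markers examined were all lower and the 6 OL markers all higher on Day 3 than on Day 0 (adjusted p under 0.05, limma). Markers of microglia and endothelial cells summed to at most 2.51 and 0.428 FPKM in any library, with 4 of 6 and 3 of 5 of them at 0 throughout, among them *Cx3cr1*, *Csf1r*, *Cldn5* and *Cdh5*. The 7 astrocyte markers summed to between 120 and 167 FPKM in replicate 1 and between 354 and 952 FPKM in replicate 2. In replicate 1 the highest of them in each library was *Aldoc*, at 57.5 to 116 FPKM. There *Gja1* was at 0 on Day 0 and Day 2, and *Aldh1l1* on Day 1.

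All 10 genes passed the filter for the test (2 or more libraries with an FPKM of 1 or higher), which left 12208 genes. From Day 0 to Day 3, 6 of the 10 rose: the 4 semaphorins, *Plxnb3* and *Rtn4*. *Lingo1* fell, and *Plxna4*, *Nrp1* and *Nrp2* were not called in either direction. Over all genes tested, 12% (1460) were called higher and 26.3% (3207) lower in that comparison. The median change of the 10 genes was 1.75 on the log2(FPKM + 1) scale, against -0.31 over all genes tested. Median ratio scaling, which removes most of that general shift, gave 17.5% of all genes higher and 16.8% lower, and the same split of 6 higher and 1 lower among the 10. In bulk RNA, a change in the number of cells that make a transcript and a change in the amount per cell cannot be told apart.

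**Figure D1:**
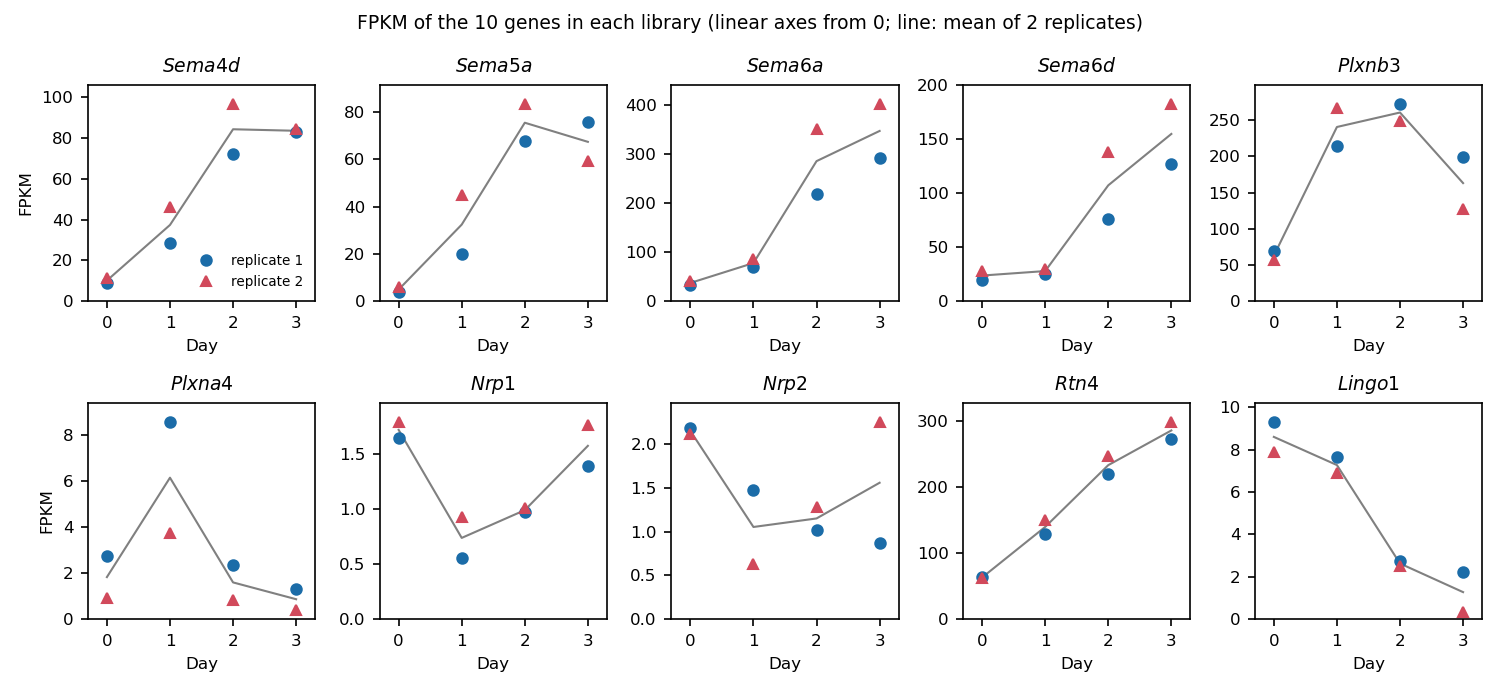
FPKM of the 10 genes (y axes, linear and starting at 0, scaled for each gene) in each of the 8 libraries by day (x axes); circles are replicate 1, triangles replicate 2 and the line is the mean of both. *Sema6a* and *Rtn4* reach 347 and 286 FPKM on Day 3 on average, *Plxnb3* and *Plxna4* are highest in the middle of the course, and *Lingo1* falls from 8.61 to 1.27 FPKM.

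*Sema4d* encodes a membrane-bound semaphorin, and plexin-B1 is a known receptor of it, though not the only one. Its level was 8.94 and 11.2 FPKM (Day 0), 28.3 and 46.4 (Day 1), 72.0 and 96.6 (Day 2) and 82.9 and 84.2 (Day 3), with replicate 1 first here and in what follows. The libraries of Day 0, Day 1 and Day 2 did not overlap, while those of Day 3 lay inside the range of Day 2. Between Day 0 and Day 3 the mean rose 8.31-fold, from 10.1 ± 1.58 to 83.6 ± 0.874 FPKM (SD, n = 2), with a log2 change of 2.94 (SE 0.25, adjusted p = 1.28e-04, limma). The Day 1 step was 1.76 (SE 0.25, adjusted p = 0.00274) and the Day 2 step 1.18 (SE 0.25, adjusted p = 0.0406). Between Day 2 and Day 3 the log2 difference was 0.00 (SE 0.25).

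*Sema5a* encodes a transmembrane semaphorin with thrombospondin repeats, and plexin-B3 is its known receptor. It was at 3.8 and 5.96 FPKM (Day 0), 19.8 and 45.0 (Day 1), 67.7 and 83.4 (Day 2) and 75.7 and 59.2 (Day 3). The days up to Day 2 did not overlap, and Day 3 overlapped Day 2. This was the steepest course of the 10 genes: the mean on Day 3 was 13.8 times that on Day 0 (log2 change 3.56, SE 0.36, adjusted p = 2.28e-04, limma), and the change ranked 74 from the largest rise among the 12208 genes. The Day 1 step was 2.42 (SE 0.36, adjusted p = 0.00348). The Day 2 step of 1.30 (SE 0.36) was not called without the replicate block (adjusted p = 0.0845) and was called with it (SE 0.30, adjusted p = 0.04). The 2 libraries of Day 1 differed more than on any other day, at 32.4 ± 17.8 FPKM (SD, n = 2).

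*Sema6a* and *Sema6d* encode transmembrane semaphorins of the same class, which bind plexins of the A type. *Sema6a* was at 33.6 and 40.3 FPKM (Day 0), 68.9 and 86.0 (Day 1), 219 and 351 (Day 2) and 292 and 401 (Day 3). Its first 3 days stood apart from each other and the last pair overlapped, and on Day 3 it was the highest of the 10 genes by its mean, although its libraries and those of *Rtn4* overlapped. The mean rose 9.38-fold from Day 0 to Day 3 (log2 change 3.18, SE 0.25, adjusted p = 9.85e-05, limma). The Day 2 step was 1.84 (SE 0.25, adjusted p = 0.0124). The Day 1 step was 1.05 (SE 0.25, adjusted p = 0.0288, limma). Its call was lost with no filter (adjusted p = 0.0531, limma) and with a variance prior that ignores expression (adjusted p = 0.0734, limma). It was also lost without either Day 0 library or either Day 1 library, where the change was between 0.89 and 1.20.

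*Sema6d* began later. It was at 19.4 and 27.8 FPKM on Day 0 and at 25.4 and 30.1 on Day 1, which overlapped, and then at 76.0 and 138 on Day 2 and at 127 and 182 on Day 3. Day 2 and Day 3 overlapped each other and lay above both earlier days. The log2 change was 0.24 at the first step (SE 0.30, adjusted p = 0.675, limma), 1.85 at the second (SE 0.30, adjusted p = 0.0199) and 2.66 (SE 0.30, adjusted p = 3.97e-04) over the whole course, a 6.55-fold rise in the mean.

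Set on the same scale, the 4 semaphorins differed in how much of the rise was present on Day 1. Of the rise in log2(FPKM + 1) between Day 0 and Day 3, *Sema5a* had 68.1% on Day 1, *Sema4d* 59.9%, *Sema6a* 32.8% and *Sema6d* 9.13%. That order was the same in replicate 1 (52.0%, 48.1%, 27.9% and 4.7%) and in replicate 2 (84.2%, 71.7%, 37.8% and 13.6%). By Day 2 the shares were 105%, 99.9%, 90.5% and 78.8% in the same order. On the linear FPKM scale the Day 1 shares were lower, at 44.0%, 37.2%, 13.1% and 3.19%, and in replicate 1 *Sema4d* (24.8%) and *Sema5a* (23.9%) changed places. For the replicate shares, the Day 1 library of that replicate was set against the Day 0 and Day 3 means of both replicates. All these shares describe the courses, share the Day 0 and Day 3 libraries and carry no test.

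**Figure D2:**
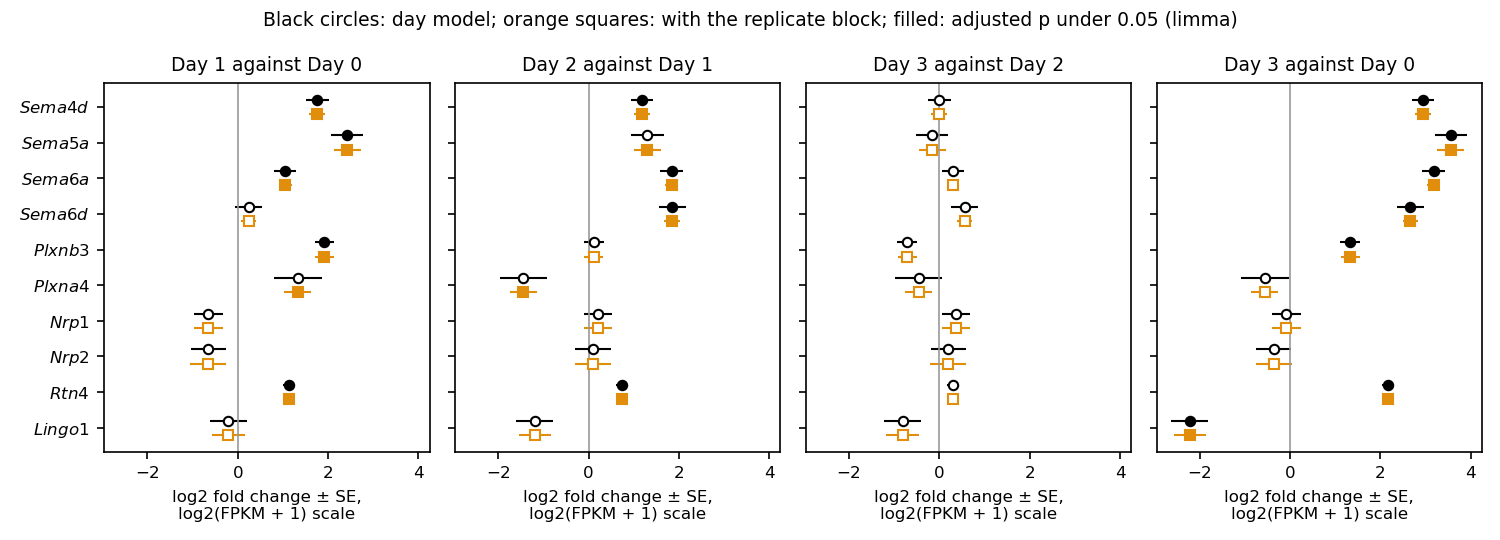
Log2 change on the log2(FPKM + 1) scale with its SE (x axes) of the 10 genes (rows) in 4 comparisons of days, from the model with day alone (black circles) and with the replicate block (orange squares); filled symbols have an adjusted p under 0.05. The 4 semaphorins and *Rtn4* lie right of 0 in the comparison of Day 3 with Day 0 by 2.16 to 3.56, and in the comparison of Day 3 with Day 2 no symbol is filled.

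*Plxnb3* encodes plexin-B3, known as a plexin of the OL lineage. It was at 69.3 and 56.2 FPKM (Day 0), 214 and 267 (Day 1), 272 and 249 (Day 2) and 199 and 127 (Day 3). Every library of the 3 later days was above both Day 0 libraries, Day 1 and Day 2 overlapped, and both Day 3 libraries were below both Day 2 libraries. The gene rose by Day 1, by 1.92 (SE 0.22, adjusted p = 0.00142, limma) and the difference at the next step was 0.12 (SE 0.22, adjusted p = 0.776). At the last step the log2 difference was -0.71 (SE 0.22), which did not pass (adjusted p = 0.191, and 0.13 with the replicate block). Day 3 stayed above Day 0 by 1.33 (SE 0.22, adjusted p = 0.00241), 2.59-fold in the mean. On Day 1, 144% of that net log2 rise was present. The Day 1 libraries stood at 132% and 156%, each set against the Day 0 and Day 3 means of both replicates. Within replicate 1 the level was 214 FPKM on Day 1 and 199 on Day 3, and within replicate 2 it was 267 and 127. *Plxnb3* had the highest mean of the 10 genes on Day 1, and on Day 2 its libraries lay inside the range of *Sema6a*.

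*Plxna4* encodes plexin-A4, a receptor of class 3 and class 6 semaphorins. It was low, at 2.74 and 0.906 FPKM (Day 0), 8.55 and 3.73 (Day 1), 2.35 and 0.835 (Day 2) and 1.31 and 0.415 (Day 3). Both Day 1 libraries were above all libraries of the other days, and replicate 1 was the higher library on all 4 days. The FPKM steps correspond to 53 and 14 fragments (Day 0), 132 and 60 (Day 1), 36 and 14 (Day 2) and 18 and 5 (Day 3). Summed over both libraries and corrected for depth, Day 1 held 3.16 times the fragments of Day 0 (95% interval 2.38 to 4.24, exact, counting error alone), and Day 3 held 0.462 times (0.275 to 0.752). With day alone in the model neither the rise to Day 1 (log2 change 1.33, SE 0.53, adjusted p = 0.149) nor the fall to Day 2 (-1.44, SE 0.53, adjusted p = 0.163) was called. With the replicate block both were called (SE 0.30 for each, adjusted p = 0.0211 and 0.0316, limma). Between Day 0 and Day 3 the log2 difference was -0.56 (SE 0.53, adjusted p = 0.428, and 0.168 with the block).

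*Nrp1* and *Nrp2* encode the neuropilins, which bind secreted semaphorins and also VEGF. *Nrp1* was at 1.65 and 1.79 FPKM (Day 0), 0.551 and 0.925 (Day 1), 0.971 and 1.01 (Day 2) and 1.39 and 1.76 (Day 3). The Day 1 and Day 2 libraries were below both Day 0 libraries, while Day 3 overlapped Day 0. These levels rest on 4 to 15 fragments per library. The fragment ratio of Day 1 to Day 0 was 0.434 (95% exact interval 0.195 to 0.899, counting error alone), and that of Day 3 to Day 0 was 0.914 (0.482 to 1.7). No comparison of *Nrp1* passed the test, with a log2 difference of -0.65 (SE 0.32, adjusted p = 0.229, limma) on Day 1 and -0.08 (SE 0.32, adjusted p = 0.857) on Day 3 against Day 0. The sign of the latter turned under median ratio scaling (0.12) and quantile normalization (0.33).

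*Nrp2* was at 2.18 and 2.12 FPKM (Day 0), 1.47 and 0.635 (Day 1), 1.02 and 1.28 (Day 2) and 0.866 and 2.25 (Day 3). The Day 1 and Day 2 libraries were below both Day 0 libraries and overlapped each other, and the Day 3 libraries lay on either side of Day 0. The log2 difference was -0.65 (SE 0.39, adjusted p = 0.333, limma) on Day 1 and -0.36 (SE 0.39, adjusted p = 0.499) on Day 3 against Day 0. Without Day 3 replicate 1 the latter was 0.05. No comparison of *Nrp2* passed the test, and its values did not resolve into whole fragments.

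*Rtn4* encodes Nogo, a reticulon that shapes the endoplasmic reticulum and, at the surface of myelin, inhibits axon growth. It was at 63.3 and 62.6 FPKM (Day 0), 129 and 150 (Day 1), 219 and 247 (Day 2) and 273 and 298 (Day 3). It was the only one of the 10 genes whose libraries were all higher on each day than on the day before. From Day 0 to Day 3 the mean rose 4.54-fold, from 62.9 ± 0.452 to 286 ± 18.0 FPKM (SD, n = 2), and the log2 change of 2.16 had the lowest adjusted p of the 10 genes (SE 0.13, adjusted p = 5.49e-05, limma). The steps were 1.13 to Day 1 (SE 0.13, adjusted p = 0.00146), 0.74 to Day 2 (SE 0.13, adjusted p = 0.0266) and 0.30 to Day 3 (SE 0.13, adjusted p = 0.359). The table gives 1 value for the gene, so Nogo-A and the shorter products of *Rtn4* cannot be told apart. Of its exonic bases, 1284 (18.4%) overlap *Eml6* on the opposite strand, which was listed at 1.06 to 2.98 FPKM.

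*Lingo1* encodes a leucine-rich repeat membrane protein that joins the Nogo receptor. It was at 9.3 and 7.91 FPKM (Day 0), 7.67 and 6.88 (Day 1), 2.74 and 2.51 (Day 2) and 2.23 and 0.317 (Day 3). Both libraries of each day were below both libraries of the day before. In fragments, *Lingo1* had 47 and 32 (Day 0), 31 and 29 (Day 1), 11 and 11 (Day 2) and 8 and 1 (Day 3). Over the whole course its log2 change was -2.22 (SE 0.41, adjusted p = 0.00392, limma), and the fragments fell to 0.153 of their Day 0 share (95% exact interval 0.0676 to 0.306, counting error alone). The single steps did not pass, with -0.21 to Day 1 (SE 0.41, adjusted p = 0.803), -1.19 to Day 2 (SE 0.41, adjusted p = 0.145, and 0.0883 with the replicate block) and -0.81 to Day 3 (SE 0.41, adjusted p = 0.415). Without Day 3 replicate 2, whose value rests on 1 fragment, the change from Day 0 to Day 3 was -1.57 (adjusted p = 0.0116), and with a pseudocount of 0.1 it was -3.14.

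By step, 5 of the 10 genes were called higher on Day 1 than on Day 0 (*Sema4d*, *Sema5a*, *Sema6a*, *Plxnb3* and *Rtn4*), where 5.04% of all genes were. With the replicate block *Plxna4* joined them, against 6.09% of all genes. From Day 1 to Day 2, 4 were called higher (*Sema4d*, *Sema6a*, *Sema6d* and *Rtn4*), where 2.16% of all genes were. With the block *Sema5a* made 5 higher and *Plxna4* 1 lower, against 3.01% and 3.57% of all genes. From Day 2 to Day 3 limma called 0 of the 10 in either direction and 0.295% of all genes, and at an unadjusted p under 0.05 there was 1 of the 10, *Plxnb3*, beside 14.5% of all genes (3 of the 10 and 17.3% with the block, under which 0 of the 10 were called). The calls from Day 1 to Day 2 were the least stable: 0 of the 4 held in a fit of these days alone, 1 with a variance prior that ignores expression, and 0 without Day 1 replicate 1 or without Day 2 replicate 2. Without Day 0 replicate 1 or Day 0 replicate 2, which enter that step through the shared spread alone, 1 gene was called, and without Day 2 replicate 1 there were 2.

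Relative to the median of all genes, the changes from Day 0 to Day 3 were 3.87 for *Sema5a*, 3.50 for *Sema6a*, 3.26 for *Sema4d*, 2.97 for *Sema6d*, 2.48 for *Rtn4*, 1.65 for *Plxnb3* and -1.90 for *Lingo1*. Among the 12208 genes, from the largest rise down, *Sema6a* ranked 110, *Sema4d* 150, *Sema6d* 193, *Rtn4* 311 and *Plxnb3* 745. From the largest fall, *Lingo1* ranked 486.

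The order of the levels changed in part over the 3 days. *Rtn4*, *Plxnb3*, *Sema6a* and *Sema6d* had the highest means on both Day 0 and Day 3, in a different order. On Day 0 *Rtn4* and *Plxnb3* led at 62.9 and 62.7 FPKM with overlapping libraries, above *Sema6a*, then *Sema6d*, then *Sema4d* with *Lingo1*, then *Sema5a*, and last *Nrp2*, *Plxna4* and *Nrp1*. The range of *Plxna4* overlapped both neuropilins, and *Nrp2* was above *Nrp1* in each library. On Day 1 *Plxnb3* stood above *Rtn4*, and *Sema4d*, *Sema5a* and *Sema6d* overlapped below *Sema6a*. On Day 2 *Sema6a* and *Plxnb3* overlapped at the top. On Day 3 *Sema6a* and *Rtn4* overlapped at the top, then *Plxnb3* with *Sema6d*, then *Sema4d* and *Sema5a*, and the remaining 4 were at 2.25 FPKM or less in each library, where each overlapped its neighbour in rank.

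Within their families the risers described here took a larger share of the FPKM on Day 3 than on Day 0. The 20 semaphorin genes summed to 177 and 182 FPKM on Day 0 and 701 and 827 on Day 3, and the 4 described here made up 37.2% and 46.9% of that sum on Day 0 and 82.5% and 87.8% on Day 3. *Sema6a* alone went from 19.0% and 22.2% to 41.7% and 48.5%. The 9 plexin genes summed to 170 and 173 FPKM (Day 0), 291 and 346 (Day 1) and 237 and 161 (Day 3). *Plxnb3* was 40.8% and 32.4% of the plexin sum (Day 0), 85.7% and 85.8% (Day 2) and 83.8% and 78.6% (Day 3). Among the 4 reticulon genes *Rtn4* went from 14.7% and 15.0% to 45.7% and 49.3%, while the sum went from 431 and 417 to 597 and 605 FPKM. For each of these shares the Day 3 libraries lay above the Day 0 libraries. The genes were named as risers from these same libraries, so the shares describe that rise and carry no test.

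**Figure D3:**
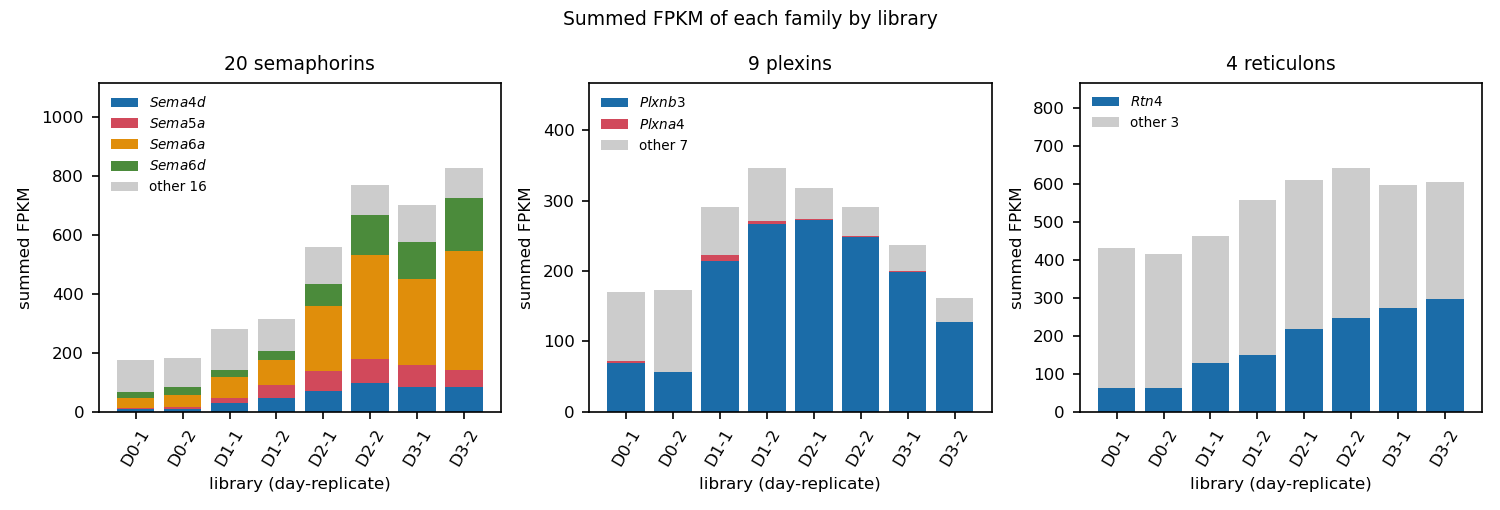
Summed FPKM (y axes, from 0) of the 20 semaphorin, 9 plexin and 4 reticulon genes in each library (x axes, day and replicate), with the described genes in colour and the others in grey. The semaphorin sum reaches 827 FPKM in a Day 3 library, 87.8% of it in colour, and *Plxnb3* fills 73.4% to 85.8% of the plexin bars from Day 1 on.

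The rest of the pathway was read from 68 further genes: 16 semaphorins, 7 plexins, 4 co-receptors, 26 semaphorin effectors, 12 Nogo ligands and receptors and 3 reticulons. Of these, 67 were listed and 53 were tested. From Day 0 to Day 3, 12 were called higher and 19 lower, with a median log2 change of -0.46, beside the 12% and 26.3% of all genes given above. With median ratio scaling the split was 15 higher and 15 lower. No call changed its direction under any alternative.

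The other plexins moved apart from *Plxnb3*: of 7 tested, 0 were called higher and 5 lower by limma, with a median log2 change of -1.55. *Plxna2*, a receptor of class 6 semaphorins, was at 18.1 and 15.9 FPKM on Day 0 and at 1.16 and 0.851 on Day 3 (log2 change -3.16, SE 0.32, adjusted p = 2.33e-04, limma). *Plxnb2* went from 38.6 and 41.3 to 10.7 and 11.2 FPKM (-1.77, SE 0.16, adjusted p = 1.51e-04). *Plxnc1*, the receptor of *Sema7a*, changed by -2.03 (SE 0.34, adjusted p = 0.00223) and *Plxna3* by -1.55 (SE 0.36, adjusted p = 0.0102), and the call of *Plxna3* was lost without Day 0 replicate 2 or Day 3 replicate 2. *Plxna3* resembled *Plxna4* in standing highest on Day 1, at 14.0 and 14.5 FPKM against 7.32 and 8.69 on Day 0. Plexin-B1, a receptor of *Sema4d* named above, is encoded by *Plxnb1*, which is named here after its values were seen. *Plxnb1* was at 11.5 and 17.2 FPKM (Day 0) and 12.3 and 10.8 (Day 3) and was not called (adjusted p = 0.395, limma).

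Among 13 other semaphorins tested, 3 were higher and 3 lower, with a median log2 change of -0.27. *Sema4a* rose by 2.26 (SE 0.26, adjusted p = 4.37e-04, limma), from 1.28 and 1.61 to 10.4 and 11.0 FPKM. *Sema4g* rose by 1.22 (SE 0.37, adjusted p = 0.031) and *Sema4c* by 0.99 (SE 0.18, adjusted p = 0.00372). The call of *Sema4g* was lost under 6 alternatives, among them leaving out either Day 0 library. *Sema5b*, the other class member of *Sema5a*, took the opposite course, from 27.6 and 31.1 FPKM on Day 0 through 17.5 and 23.0 on Day 1 and 9.01 and 6.1 on Day 2 to 6.24 and 3.67 on Day 3 (-2.38, SE 0.28, adjusted p = 4.81e-04). *Sema5b* was above *Sema5a* in both Day 0 libraries, and *Sema5a* was above *Sema5b* within each replicate from Day 1 on.

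Of the 23 semaphorin effectors tested, 6 were higher and 6 lower, with a median log2 change of 0.05. The collapsin response mediators, which carry semaphorin signals to microtubules, were split: *Dpysl5* (1.33, SE 0.39, adjusted p = 0.028, limma), *Dpysl4* (1.11, SE 0.18, adjusted p = 0.0022) and *Dpysl2* (0.92, SE 0.13, adjusted p = 0.00114) rose, and *Dpysl3* fell from 256 and 268 to 34.8 and 21.0 FPKM (-3.23, SE 0.30, adjusted p = 1.71e-04). *Crmp1*, of the same family and named here after its values were seen, fell from 51.5 and 76.0 to 26.5 and 20.1 FPKM (-1.40, SE 0.32, adjusted p = 0.00972), a call that was lost without Day 0 replicate 2 or Day 3 replicate 2. The call of *Dpysl5* was lost without Day 0 replicate 2, without Day 3 replicate 2 and in a fit of Day 0 and Day 3 alone. The MICAL enzymes, which oxidise actin below plexins, were split too, with *Mical3* up by 2.92 (SE 0.21, adjusted p = 7.75e-05) and *Mical1* at -2.17 (SE 0.35, adjusted p = 0.00187). *Pak1*, a kinase of the Rac pathway, was at 24.1 and 27.7 FPKM (Day 0), 14.2 and 9.81 (Day 2) and 60.8 and 88.3 (Day 3), a change of 1.47 over the whole course (SE 0.27, adjusted p = 0.00378). *Farp1*, a Rac activator that binds plexin-A4, changed by -2.03 (SE 0.17, adjusted p = 1.25e-04).

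Of the other Nogo ligands and receptors 6 could be tested, and 2 were higher and 3 lower, with a median log2 change of -0.70. *Mag*, a second myelin protein that inhibits axons, went from 8.33 and 10.4 to 1114 and 1736 FPKM (7.08, SE 0.38, adjusted p = 4.78e-05, limma). *Lingo2*, a paralog of *Lingo1*, moved against it, from 2.2 and 0.915 FPKM on Day 0 to 13.8 and 16.4 on Day 3 (2.70, SE 0.29, adjusted p = 3.03e-04, limma). *Lingo3*, a further paralog named here after its values were seen, fell as *Lingo1* did. It went from 4.36 and 2.61 to 0.8 and 0.607 FPKM (-1.37, SE 0.40, adjusted p = 0.0274, limma). That call was lost with a pseudocount of 0.1, with quantile normalization and without Day 0 replicate 1 or either Day 3 library. *Lingo4* was too low to test. *S1pr2*, a further receptor of Nogo, went from 10.4 in both Day 0 libraries to 1.63 and 0.371 (-2.59, SE 0.44, adjusted p = 0.00252). Of the 3 other reticulons 1 was higher and 2 were lower, and *Rtn1* changed by -1.55 (SE 0.22, adjusted p = 0.00113). *Rtn4r* and *Ngfr*, which encode the Nogo receptor and its signalling partner p75 and are named here after their values were seen, were too low to test, at up to 1.11 and 0.538 FPKM.

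**Figure D4:**
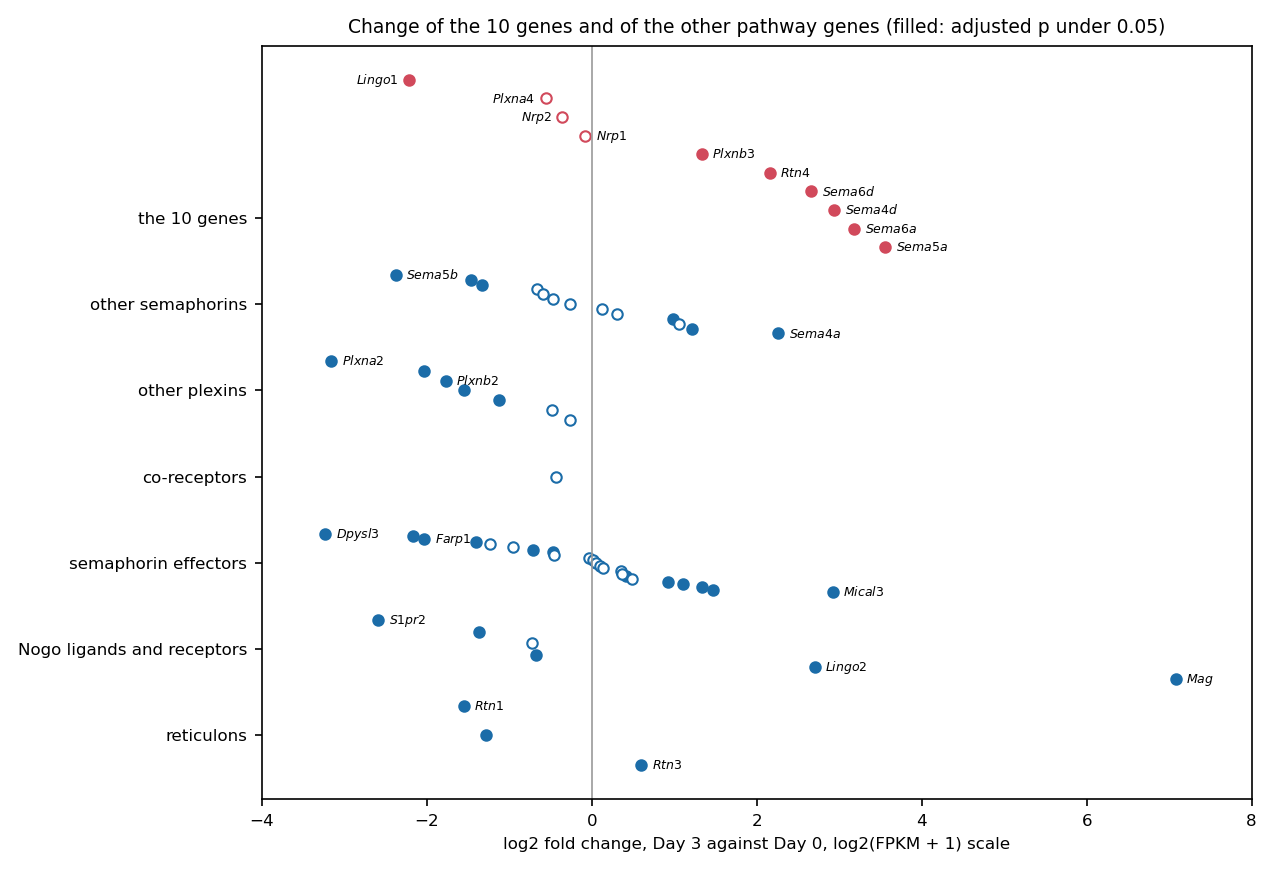
Log2 change from Day 0 to Day 3 on the log2(FPKM + 1) scale (x axis) of the 10 genes (red) and of the 53 other pathway genes tested (blue), by list (rows); filled circles have an adjusted p under 0.05. *Mag* stands at 7.08 and *Dpysl3* at -3.23, and all filled plexins other than *Plxnb3* lie left of 0.

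The replicate series differed from each other for some of the 10 genes. *Sema4d*, *Sema6a*, *Sema6d* and *Nrp1* were higher in replicate 2 on all 4 days, and *Plxna4* and *Lingo1* were lower in it on all 4 days. The log2 difference, with day in the model, was 0.52 for *Sema6d* (SE 0.12, adjusted p = 0.112, limma), 0.43 for *Sema6a* (SE 0.10, adjusted p = 0.132), 0.36 for *Sema4d* (SE 0.13, adjusted p = 0.312) and -0.89 for *Plxna4* (SE 0.22, adjusted p = 0.141). None of the 10 was called in either direction, where 1.05% of all genes were, and 4 of the 10 were under an unadjusted p of 0.05, where 11.9% of all genes were. In the same comparison all 7 astrocyte markers were higher in replicate 2 on all 4 days and 5 were called, with a median of 2.33. *Mag* was called higher in replicate 2 (0.69, adjusted p = 0.0425), *Pdgfra* lower (-1.81, adjusted p = 0.0461) and *Tubb3*, a tubulin of neurons, lower (-1.15, adjusted p = 0.0035). The neuron list summed to 64.4 to 233 FPKM in replicate 1 and 31.4 to 115 in replicate 2, mostly from *Tubb3*, with *Gad1* at 0 and *Slc17a7* and *Rbfox3* at or under 0.305 in every library. *Snap25* (0.46, adjusted p = 0.739, limma) and *Syt1* (-0.16, adjusted p = 0.848) were not called between the replicates. The mural list summed to 0.112 to 0.439 FPKM in replicate 1 and 1.37 to 2.3 in replicate 2, with *Rgs5* at 0 throughout. The sum in replicate 2 came mostly from *Acta2*, at 1.17 to 2.2 FPKM there and at 0 in replicate 1. *Pdgfrb* and *Abcc9* reached 0.339 and 0.439 FPKM in replicate 1 and 0.193 and 0.106 in replicate 2. *Kcnj8* was seen in replicate 2 alone, at up to 0.343. The part of these cells in the replicate differences of the 10 genes was not tested. Some of these markers also moved with day. From Day 0 to Day 3 *Gfap* went from 14.7 to 45.5 FPKM in replicate 1 and from 154 to 603 in replicate 2, and *Aqp4* from 0.898 to 3.97 and from 22.9 to 84.8. With the replicate block both were called higher on Day 3 (*Gfap* 1.76, adjusted p = 1.26e-04, and *Aqp4* 1.62, adjusted p = 7.35e-04, limma), as 2 of the 7 astrocyte markers, and with day alone in the model 0 of the 7 were. Of the 7, 4 were higher on Day 3 in both replicates. *Slc1a3* (-0.45) and *Aldh1l1* (-0.10) had negative changes, not called with the block (adjusted p = 0.141 and 0.852, limma). *Tubb3* rose in both replicates, from 60.2 to 231 and from 20.8 to 113 FPKM (2.15, SE 0.58, adjusted p = 0.0206, limma). The other neuron genes tested went the other way, *Snap25* by -1.79 and *Syt1* by -0.50. *Snap25* was called lower with the replicate block (adjusted p = 0.0473, limma) and not with day alone (adjusted p = 0.0618), and *Syt1* was called in neither fit. The part of these cells in the day differences of the 10 genes was not tested either.

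**Figure D5:**
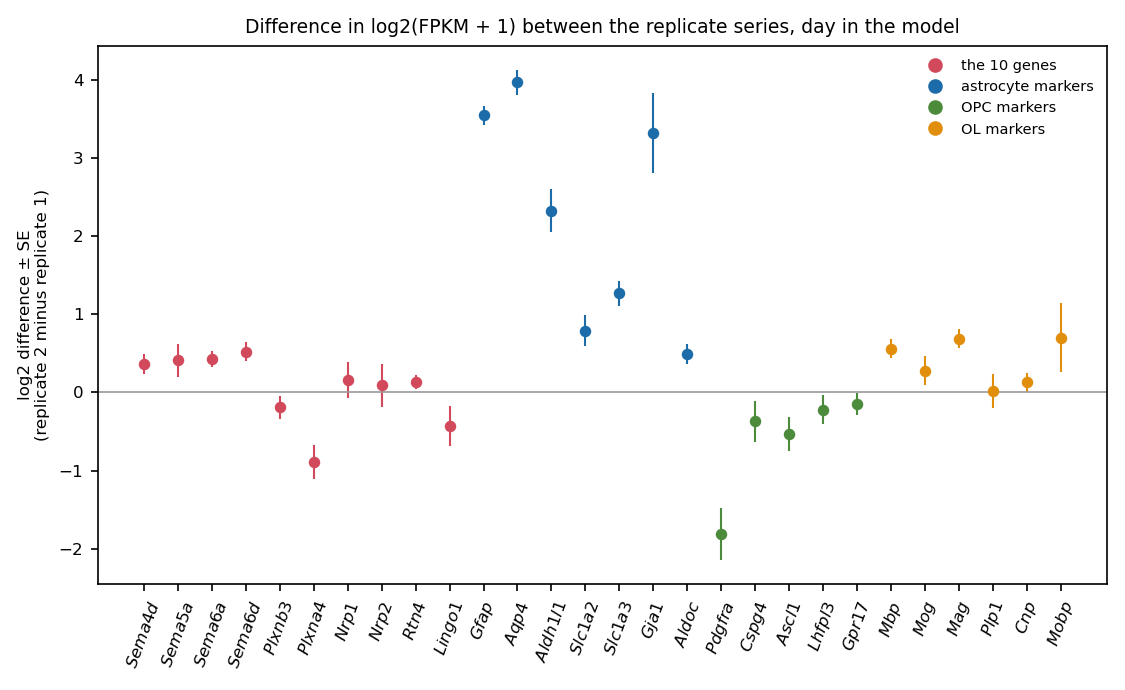
Log2 difference of replicate 2 minus replicate 1 with its SE (y axis), with day in the model, for the 10 genes (red) and for markers of astrocytes (blue), OPCs (green) and OLs (orange). The astrocyte markers lie above 0 with a median of 2.33, while the 10 genes lie between -0.89 and 0.52.

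The closest profiles to each gene were sought among 8200 genes by Pearson's r over the 8 libraries. These values are descriptions, since all points share 4 days and 2 replicate series. *Sema4d* was closest to *Nfe2l3* (0.998), *Gm98* (0.998), an older symbol of *Myrf*, and *Gramd3* (0.997). *Sema5a* was close to *Sirt2* (0.996) and *Rasgef1b* (0.995). *Sema6a* was closest to *Fam222a* (0.997), *Mbp* (0.995) and *Cpox* (0.995), and *Sema6d* to *Man1a* (0.995), *Dcun1d4* (0.994) and *Chst2* (0.99). *Rtn4* was closest to *Plcl1* (0.996), *Mag* (0.994) and *Sv2a* (0.994). *Plxnb3*, with its peak in the middle, was closest to *Zdhhc14* (0.989), *Rab4b* (0.989) and *Epb4.1l2* (0.986). *Lingo1* went with *Accn2* (0.994), *Ptms* (0.992) and *St3gal5* (0.99), and *Plxna4* with *Apc2* (0.989), *Id3* (0.983) and *March6* (0.974). Within the 10 genes, *Sema4d* was closest to *Sema5a* and *Rtn4* (0.99 each), *Sema6a* to *Sema6d* and *Rtn4* (0.97 each), and *Lingo1* was opposite to *Sema6d* (-0.95) and *Sema6a* (-0.92).

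In GENCODE M21 (GRCm38) the genes lie on 10 different chromosomes, so none neighbours another. *Sema4d* is at chr13:51685529-51793747 on the minus strand, *Sema5a* at chr15:32244810-32696341 on the plus strand and *Sema6d* at chr2:124089969-124667770 on the plus strand. *Plxnb3* is at chrX:73757090-73772514 on the plus strand and *Plxna4* at chr6:32144268-32588192 on the minus strand. *Nrp1* is at chr8:128358604-128503363 and *Nrp2* at chr1:62703285-62818695, both on the plus strand. *Rtn4* is at chr11:29692947-29744331 on the plus strand and *Lingo1* at chr9:56618475-56796468 on the minus strand.

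Promoter windows are shown for *Sema4d* and *Rtn4*, whose profiles ran together, for *Plxnb3*, which peaked in the middle, and for *Lingo1*, which fell. They hold the bases just before a RefSeq start (GRCm38.p6), outside annotated exons, and read 5′ to 3′ on the strand of the gene. The letters searched on both strands were ACAAAG (a core of Sox factor sites), CAGCTG (an E-box) and AGGTCA (a core of thyroid hormone receptor sites), and capitals mark a match. *Plxnb3* is at chrX:73756853-73757089 (plus), *Sema4d* at chr13:51739447-51739696 (minus), *Rtn4* at chr11:29692648-29692897 (plus) and *Lingo1* at chr9:56635649-56635898 (minus). The *Sema4d* and *Lingo1* windows lie inside introns of longer GENCODE transcripts.
*Plxnb3*: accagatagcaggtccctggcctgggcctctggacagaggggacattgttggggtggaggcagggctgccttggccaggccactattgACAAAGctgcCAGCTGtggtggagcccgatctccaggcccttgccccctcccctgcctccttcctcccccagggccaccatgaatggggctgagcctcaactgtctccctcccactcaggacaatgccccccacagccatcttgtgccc
*Sema4d*: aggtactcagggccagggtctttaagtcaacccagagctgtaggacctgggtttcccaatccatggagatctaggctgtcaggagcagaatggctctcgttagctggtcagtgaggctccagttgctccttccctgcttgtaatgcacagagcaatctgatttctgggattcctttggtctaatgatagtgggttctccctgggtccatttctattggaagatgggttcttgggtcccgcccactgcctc
*Rtn4*: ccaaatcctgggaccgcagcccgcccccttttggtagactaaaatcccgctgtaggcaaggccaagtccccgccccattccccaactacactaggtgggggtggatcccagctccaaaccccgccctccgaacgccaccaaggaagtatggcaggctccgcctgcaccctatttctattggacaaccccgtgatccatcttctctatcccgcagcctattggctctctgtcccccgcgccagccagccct
*Lingo1*: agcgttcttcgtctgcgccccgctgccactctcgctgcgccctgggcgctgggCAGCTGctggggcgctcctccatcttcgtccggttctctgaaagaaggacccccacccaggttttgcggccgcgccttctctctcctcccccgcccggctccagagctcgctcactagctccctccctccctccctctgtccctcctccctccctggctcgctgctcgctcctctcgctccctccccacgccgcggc
The *Plxnb3* window held 1 ACAAAG and 1 CAGCTG and the *Lingo1* window 1 CAGCTG. No match was in the windows of *Sema4d* and *Rtn4*. The GC content was 64.6% for *Plxnb3*, 52.4% for *Sema4d*, 61.2% for *Rtn4* and 70.4% for *Lingo1*, against a median of 52.4% over 32851 RefSeq windows of 250 bases. The set of RefSeq windows used here covered 8 of the 10 genes, not *Sema6a* and *Plxna4*, and 9 windows of 7 genes kept at least 200 bases outside exons. ACAAAG was in 2 of these 9 and in 16.5% of all windows, CAGCTG in 2 of 9 and in 13.0%, and AGGTCA in 1 of 9, that of *Nrp1*, and in 14.0%. The 9 windows were cut at exons and kept 218 to 250 bases. Those behind the shares and the GC median over all windows held 250 bases and were not cut. A match is a run of letters and no measured binding.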

How the data were processed

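Libraries of mRNA that keep the strand were sequenced from both ends with reads of 75 nt. The authors used OmicSoft ArrayStudio and deposited their values as 1 table of FPKM, with a column per library and replicates kept apart. The labels name the build mm10. Whether counting used strand is not given in the sources used here. The labels give the day and the replicate number of each of the 8 columns.

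log2(FPKM + 1) was fitted in R 4.3.3 with limma 3.58.1 (lmFit, eBayes with a trend) over 12208 genes with day as a factor of 4 levels, and p-values were adjusted by Benjamini and Hochberg over all of them. A gene was called at an adjusted p under 0.05. FPKM are not counts, so no count model was fitted. This scale understates the change of low genes. The model was tested on simulated data.

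Same-numbered replicates deviated together on all 6 pairs of days (r from 0.16 to 0.29 over 12208 genes), so the number was used as a block in a further fit. The labels give the numbers, and no source used here says what they share.

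The 10 genes, the pathway and marker lists and the tests were chosen with earlier results of these data known. All 10 genes are named, and of the other pathway genes the 10 largest called rises and falls. Profiles were compared among genes with FPKM of at least 10 in a library. A withheld gene among the closest profiles is not reported here. Depth was estimated from FPKM steps, and 45.4% to 49.8% of the low values examined per library were whole fragments within 0.05, against 10% by chance. Fragments are quoted for *Plxna4*, *Nrp1* and *Lingo1*, whose values were whole within 0.1. Other steps used Python 3.11.15 with scipy 1.17.1, pandas 2.3.3, matplotlib 3.10.9 and numpy 2.4.6.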

Additional observations from a re-analysis of the deposited data

How the results depend on the processing

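Each comparison was recomputed under up to 17 alternatives: a pseudocount of 0.1, no filter, a filter that asks for 1 library at 10 FPKM or higher, 3 scalings, the replicate block, only the days compared, no variance trend, and each of the 8 libraries left out, where a lone library is assumed to vary like the other days. The calls of *Sema4d*, *Sema5a*, *Sema6a*, *Sema6d*, *Plxnb3*, *Rtn4* and *Lingo1* between Day 0 and Day 3 held in all of them, except that the filter at 10 leaves *Lingo1* untested. From Day 1 to Day 2, the 4 genes called became 0 with only the days compared, 1 without the trend, 6 with the replicate block, and 0 to 3 with a library left out. *Sema4d* lost that call in 11 of 17 alternatives, *Rtn4* in 8, *Sema6d* in 7 and *Sema6a* in 3. From Day 0 to Day 1, 4 to 6 genes were called, and from Day 2 to Day 3 and between replicates 0 under every alternative. The difference of *Nrp1* between Day 0 and Day 3 was 0.02 with each library at the same sum, 0.12 with median ratio scaling, 0.33 with quantile normalization and -0.18 to 0.02 with a library left out. That of *Nrp2* was 0.05 with quantile normalization and -0.76 to 0.05 with a library left out. The cause was not tested. The block changed no call of the 10 genes other than those of *Plxna4* and *Sema5a* given above. Calls of the 53 other pathway genes numbered 21 to 32 with a library left out, and without Day 0 replicate 2, 11 of the 31 were lost. Depth limits *Plxna4*, *Nrp1* and *Lingo1*, which rest on 1 to 132 fragments per library.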
